A study of Mus musculus with 2 samples.

Results

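Chaperones and the genes of the unfolded protein response were described in inflammation-experienced regulatory T cells. The 42 genes were matched by gene name out of 55536 genes in the annotation; the name Ddit3 matched a second, 105-nt entry, which was set aside. They were grouped by textbook role into 1 heat shock regulator, 6 heat-inducible genes, 8 constitutive cytosolic genes, 3 mitochondrial genes, 5 CCT chaperonin subunits, 6 sensors and transcription factors of the unfolded protein response, 11 ER folding genes and 2 ER degradation genes. Each gene was given 1 class, for some by compartment, so genes of other classes may also be heat-inducible. No measured value entered the rule, but the members and lists were chosen with earlier results of these data known.

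Polyadenylated RNA came from primary cells, labelled as of bone marrow hematopoietic origin, from a male mouse aged 6 months of the strain Foxp3CreERT2 x Rosa26YFP. That name joins a tamoxifen-controlled Cre recombinase at Foxp3, the gene that defines regulatory T cells, with a YFP reporter at Rosa26. There was 1 biological replicate, sequenced as technical replicate 1 and technical replicate 2, and how the inflammation was brought about is not given in the sources used here. No resting or untreated cells were analysed here, so levels are described and no change with inflammation can be given. Every SD (n = 2 technical libraries) is the spread between libraries labelled as technical replicates and holds no spread between animals.

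Molecular chaperones bind unfolded stretches of protein and release them in cycles of ATP binding and hydrolysis. Hsp70 proteins work with J-domain proteins, which deliver the substrate, and with nucleotide exchange factors, which free it. Heat and other protein damage release the transcription factor Hsf1, which binds heat shock elements and induces a subset of chaperones. In the endoplasmic reticulum (ER), the sensors Ern1 (IRE1), Eif2ak3 (PERK) and Atf6 watch the folding load and raise ER chaperones through the transcription factors Xbp1, Atf4 and cleaved Atf6. In T cells these pathways are known to accompany activation, when protein synthesis and secretion increase.

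The gene counts came to 15386113 in technical replicate 1 and 13604480 in technical replicate 2, so that the limit for an unseen gene, 3 counts, stood at 0.195 and 0.221 CPM. The labelled cell type was checked by its markers: all 7 T cell markers and all 7 regulatory T cell markers reached 1 TPM in both libraries, with Foxp3 at 22.1 and 17.9 TPM. TPM is a level per transcript length, scaled to the same total in each library, and 1 TPM in both libraries was taken as detected. Plasma cells, which hold very high ER chaperone levels, left little trace: 1 of 8 plasma cell markers (Jchain, 10.2 and 1.22 TPM) was detected, Tnfrsf17 and Prg2 were listed at 0 in both libraries, and the list summed to 12.3 and 2.42 TPM. Of 6 B cell markers Cd79b (36.6 and 29.7 TPM) was detected, and of 10 myeloid markers Cd68 (3.35 and 2.72 TPM). By the exact binomial test used below, Jchain (171 and 18 estimated counts, adjusted p = 7.1e-26), Cd79b (0.0448) and C1qb (5.3e-04) were higher in technical replicate 1. No plasma cell, B cell or myeloid marker was called lower. Of the T cell markers 2 were also called higher, and of the regulatory T cell markers 3. Whether this bears on the members or on the SDs was not tested. In a bulk sample, fewer cells that express a gene and less RNA per cell cannot be told apart.

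Nearly all of the chaperone and unfolded protein response genes were detected, and most were abundant. Of the 42 genes 40 (95.2%) were detected, and 38 reached 5 TPM in both libraries, against 46.7% detected among all 22028 protein-coding genes. The median member had 90.5 TPM, and the median of the 10288 detected protein-coding genes was 18.3 TPM. The undetected members were Hspa1a and Hspa1b, the inducible Hsp70 genes, although their sum lay above 1 TPM in both libraries. Together the members summed to 7758 TPM in the first library and 7678 TPM in the second, and a single gene, Hspa8, held 27.8% and 27.6% of these sums. That place held in the larger of the deposited gene tables alone: Hspa8 took 0.272% of the gene counts there but 0.0166% in the smaller table, where Hsp90ab1, Hspa5 and Pdia3, among others, had more counts. Levels are from the larger table unless the smaller one is named.

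**Figure D1:**
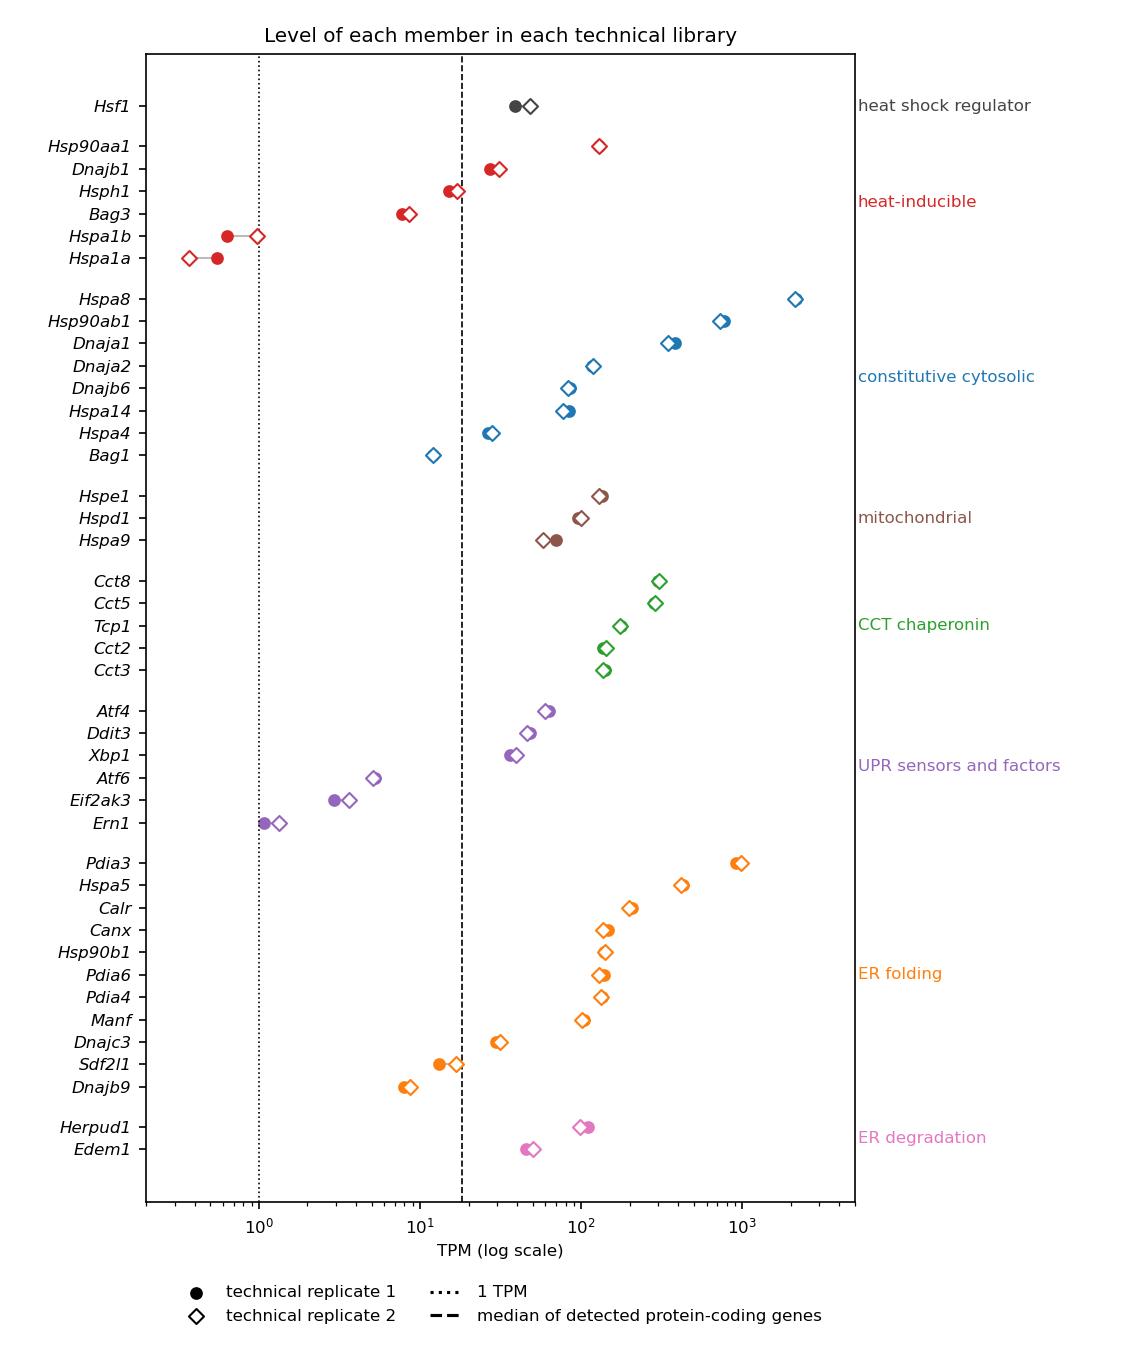
Level of each of the 42 genes in TPM (log axis) in technical replicate 1 (filled circles) and technical replicate 2 (open diamonds), by class. Hspa1a and Hspa1b lie left of the dotted line at 1 TPM in both libraries, while Hspa8 lies farthest right; the dashed line marks 18.3 TPM, the median of detected protein-coding genes.

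As grouped here, the heat-inducible class had the lowest median of the chaperone classes, and its members spread widely. This place depends on the grouping, since genes filed by compartment or as constitutive were not counted in it. Its median was 12.04 ± 0.944 TPM over 6 genes, of which 4 were detected. Each class median is the median of the genes' mean TPM, given ± the SD of the 2 library medians. Hsf1, the regulator of these genes, was itself present at 38.7 and 48.2 TPM. Hspa1a had 0.55 and 0.37 TPM in technical replicates 1 and 2, on 19.99 and 11.99 estimated counts. Hspa1b had 0.63 and 0.98 TPM, on 21.4 and 29.7 estimated counts. Both genes thus stayed under 1 TPM in both libraries, and Hspa1b was the higher of the pair in each. Their sum lay above 1 TPM in both, so their being undetected depends on how reads shared by the pair were divided.

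The other heat-inducible genes were all above that level. Hsp90aa1, the inducible cytosolic Hsp90, was the highest of the class with 128.6 and 129.8 TPM. Dnajb1, the J-domain partner of inducible Hsp70, had 27.1 and 30.9 TPM. Hsph1, an Hsp110 nucleotide exchange factor, had 15.0 and 16.9 TPM. Bag3, a cochaperone that couples Hsp70 to autophagy of aggregates, had 7.72 and 8.48 TPM. Of these 4 genes, each was somewhat higher in technical replicate 2 by TPM. The low level of the class was therefore a matter of some members and not of all: Hsp90aa1 and Dnajb1 lay above the median of detected protein-coding genes, while Hsph1, Bag3 and the Hsp70 pair lay below it.

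The constitutive cytosolic class held the most abundant member of the list. Hspa8 (Hsc70), the housekeeping Hsp70 on chromosome 9 (chr9:40800984-40810087, plus strand, mm10), reached 2159 and 2122 TPM, rank 48 among protein-coding genes in both libraries. Hsp90ab1, the constitutive Hsp90, had 765 and 729 TPM. Dnaja1, a J-domain protein that delivers substrates to Hsp70, had 381 and 348 TPM. These 3 genes stood above all others of the class in both libraries. Dnaja2, a close relative of Dnaja1, followed with 116.7 and 119.1 TPM, Dnajb6, a J-domain protein known to hold back aggregation, with 84.7 and 82.2 TPM, and Hspa14, an Hsp70 found at ribosomes, with 84.1 and 76.9 TPM. Hspa4, an Hsp110 exchange factor, had 26.3 and 28.1 TPM. Bag1, an exchange factor that links Hsp70 to the proteasome, was lowest with 12.01 and 11.99 TPM. The median of the 8 genes was 100.7 ± 0.025 TPM.

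Within each library, paralogs can be set side by side free of library scaling. The inducible pair Hspa1a plus Hspa1b came to 0.000547 of Hspa8 in technical replicate 1 and 0.000636 in technical replicate 2, so Hspa8 was 1829 and 1572 times as high. That factor depended on the processing: the ratio averaged 0.000918 over protein-coding transcripts alone, a choice made after the data were seen, 0.00106 with a pseudocount of 1 TPM, and 0.00199 from the counts of the smaller table divided by gene length, where the pair had 3 counts in technical replicate 1 and 1 in technical replicate 2. The Hsp90 pair was far less unequal, with Hsp90aa1 at 0.168 and 0.178 of Hsp90ab1. Dnajb1 stood at 0.0709 and 0.0889 of Dnaja1. In each of these pairs the side classed here as heat-inducible was the lower one in both libraries, by very different factors. On average this also held in the smaller table (Hsp90aa1 at 0.0704 of Hsp90ab1, Dnajb1 at 0.592 of Dnaja1). The ER Hsp70 Hspa5 stood at 0.199 and 0.195 of Hspa8, and the mitochondrial Hsp70 Hspa9 at 0.0324 and 0.0271. The smaller table gave another picture: per length, Hspa5 stood at 4.63 and 4.45 of Hspa8, the opposite order, and Hspa9 at 1.19 and 0.993. The ER Hsp90 Hsp90b1 stood at 0.181 and 0.192 of Hsp90ab1, and on average at 0.50 in the smaller table. Counted over protein-coding transcripts alone, Dnajb1 over Dnaja1 became 0.144 and 0.170, since much of the TPM of Dnaja1 lay in short noncoding transcripts.

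**Figure D2:**
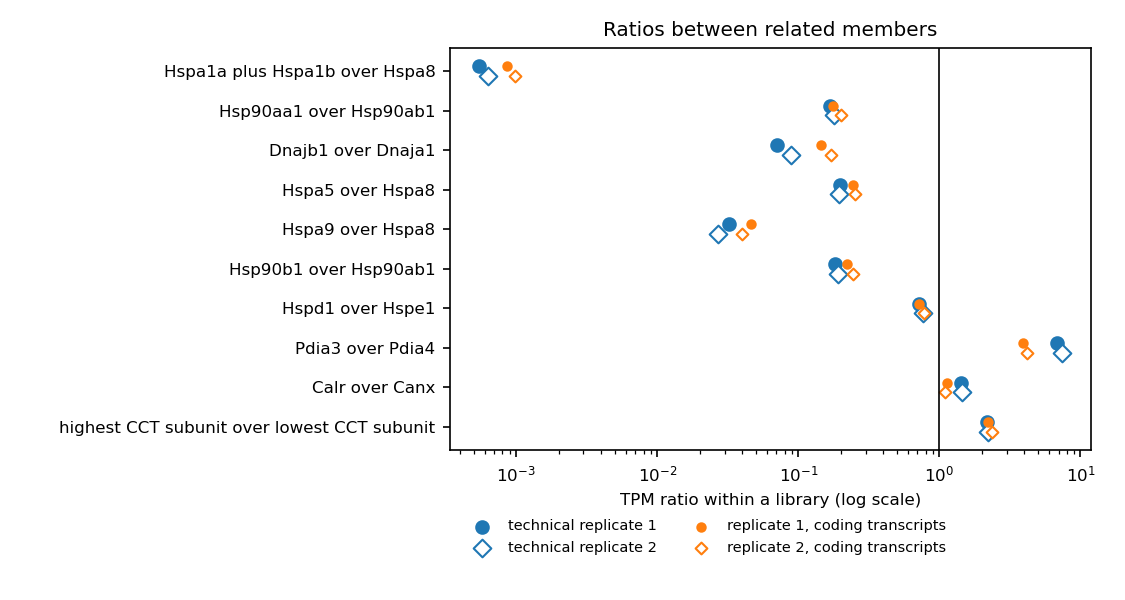
TPM ratios between related genes within each library (log axis), over all transcripts (large symbols) and over protein-coding transcripts alone (small symbols), with technical replicate 1 as circles and technical replicate 2 as diamonds. The Hsp70 pair over Hspa8 lies leftmost with either set of transcripts, and the ratios of the other pairs lie above 0.02; the line marks a ratio of 1.

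Heat shock elements were looked for in the RefSeq promoter windows (assembly GRCm38.p6), each from 250 bases before a transcript start to 50 bases after it. Windows were matched for 35 of the 42 genes, the others being Hsf1, Hsp90aa1, Hspa8, Hsp90ab1, Hspa9, Atf6 and Manf. An element was taken as GAANNTTCNNGAA or TTCNNGAANNTTC, that is 3 alternating units, on either strand, and such an element was present in 0.603% of 32851 windows of the same length. Of the 35 genes 4 (11.4%) held it, against 0.662% of all genes with a window: Hsph1, Dnajb6, Hspd1 and Hspe1. The sequences are shown because they are the binding letters that define the heat shock response, with the element in capitals and all letters 5′ to 3′ on the strand of the gene.
Hsph1 (chr5:149636288-149636300, minus strand): TTCTGGAAAGTTC
Dnajb6 (chr5:29735844-29735872, plus strand): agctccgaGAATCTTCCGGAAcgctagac
Hspd1 (chr1:55088051-55088079, minus strand): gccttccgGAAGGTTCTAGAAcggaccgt
Hspe1 (chr1:55088051-55088079, plus strand): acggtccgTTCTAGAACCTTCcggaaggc
The Hsph1 element lies after the annotated starts, within the first 50 transcribed bases. Hspd1 and Hspe1 point away from each other, their gene bodies overlap by 112 nt, and the printed element is the same stretch of DNA read on opposite strands. A second element overlaps it in both windows, shifted by 5 bases. As grouped here, 1 of the 4 genes, Hsph1, belonged to the heat-inducible class. Hspd1 and Hspe1 were placed by compartment, which does not say whether heat induces them. The levels of the 4 genes ran from 15.0 TPM (Hsph1, technical replicate 1) to 134.8 TPM (Hspe1, technical replicate 1).

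The inducible Hsp70 genes lie 9951 nt apart on chromosome 17 and have nearly the same promoter window, with 296 of 300 bases the same (98.7%). Their windows held no match to either element of 3 units but did hold a pair of units, GAANNTTC or TTCNNGAA, which 15.1% of all windows and 17.0% of all genes with a window hold. The pair is printed to show that the 2 windows carry the same bases around it.
Hspa1a (chr17:34972245-34972268, minus strand): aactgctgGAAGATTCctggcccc
Hspa1b (chr17:34959327-34959350, minus strand): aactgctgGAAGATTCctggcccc
Such pairs were present in 11 of the 35 genes: Hspa1a, Hspa1b, Hsph1, Bag3, Dnaja1, Dnajb6, Hspd1, Hspe1, Cct2, Cct5 and Eif2ak3. A match describes letters in a window, not a bound site.

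The mitochondrial chaperones were detected without exception. Hspd1 (Hsp60), which forms the folding chamber of the matrix, had 95.95 and 99.1 TPM. Hspe1 (Hsp10), the lid of that chamber, had 134.8 and 129.7 TPM, so that Hspd1 stood at 0.712 and 0.764 of its partner. Per length in the smaller table it stood at 1.31 on average, the opposite order. Hspa9, which pulls imported proteins into the matrix, had 70.04 and 57.6 TPM. Hspe1 was the highest and Hspa9 the lowest of the 3 in both libraries, and their median was 97.5 ± 2.21 TPM. The median of the constitutive cytosolic class lay close to it, and the order of these classes turned over protein-coding transcripts alone (97.5 TPM for mitochondrial genes and 72.9 TPM for constitutive cytosolic genes).

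The CCT chaperonin, the ring complex that folds actin and tubulin, had the highest class median, 175.2 ± 0.410 TPM over 5 subunits. Cct8 had 298 and 302 TPM and Cct5 had 284 and 289 TPM. Tcp1, the subunit that gives the complex its name, had 175.5 and 174.9 TPM. Cct2 (136.8 and 142.4 TPM) and Cct3 (139.9 and 136.1 TPM) were lowest, and which of them was lower differed between the libraries. The subunits were close to each other: the highest stood at 2.18 times the lowest in technical replicate 1 and 2.22 times in technical replicate 2. In the assembled ring each subunit is known to occur in equal number. Of the subunits that are not members, Cct7 had 241.1 ± 5.03 TPM and Cct4 had 155.3 ± 12.6 TPM. Of the 10 further CCT and prefoldin genes 9 were detected, led by the prefoldin subunit Pfdn5 at 1088 ± 17.97 TPM, and the undetected gene was Cct6b at 0.41 ± 0.134 TPM, named after its value was seen.

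The sensors of the unfolded protein response were the scarcest detected members. Ern1, the kinase and RNase that starts splicing of Xbp1, had 1.08 and 1.33 TPM. Eif2ak3, the kinase that slows translation by modifying eIF2 alpha, had 2.94 and 3.62 TPM. Atf6, the membrane-bound factor released by cleavage in the Golgi, had 5.25 and 5.14 TPM. The 3 sensors kept this order in both libraries, and their ranges did not overlap. The transcription factors they act through were all higher. Xbp1 had 36.4 and 39.3 TPM, Atf4 had 63.2 and 59.96 TPM, and Ddit3 (CHOP), a factor induced downstream of Atf4, had 48.1 and 46.2 TPM. The class median was 21.5 ± 0.997 TPM.

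The mRNA level of Xbp1 does not show whether it was processed by Ern1. Among its 4 annotated transcripts 1 protein-coding transcript held 86.9% and 88.9% of the TPM. The shortest annotated Xbp1 intron was 300 nt long, so the short intron that Ern1 removes is in no transcript of this annotation and the spliced form was not measured. The activity of Eif2ak3 and Atf6 is likewise set on the protein and was not measured by these libraries.

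ER folding genes were all detected, and their class median, 133.6 ± 4.04 TPM over 11 genes, was second to that of the CCT chaperonin. Pdia3 (ERp57), the disulfide isomerase that works with calreticulin and in peptide loading of MHC class I, was the highest with 916 and 984 TPM. Hspa5 (BiP), the ER Hsp70 and classic readout of ER stress, had 429 and 414 TPM. Calr and Canx, the lectin chaperones of new glycoproteins, had 207 and 197 TPM (Calr) and 146.3 and 136.4 TPM (Canx). Calr stood at 1.41 and 1.44 of Canx, and per length in the smaller table at 3.61 and 3.62. Hsp90b1 (Grp94), which folds Toll-like receptors and integrins, had 138.6 and 140.1 TPM, and it lay below Canx in technical replicate 1 and above it in technical replicate 2.

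The other disulfide isomerases lay well below Pdia3. Pdia4 had 134.4 and 132.7 TPM, and Pdia6 had 138.4 and 128.8 TPM. Pdia3 stood at 6.81 and 7.42 of Pdia4, over protein-coding transcripts alone at 3.89 and 4.16, and per length in the smaller table at 2.02 and 2.17. Manf, a small ER protein that is secreted under stress, had 103.5 and 101.9 TPM. The partners of Hspa5 were the lowest of the class: Dnajc3 (p58IPK) had 29.6 and 31.5 TPM, Sdf2l1, which sits in a complex with ER J-domain proteins, had 13.1 and 16.6 TPM, and Dnajb9 (ERdj4) had 7.98 and 8.68 TPM. The class thus ran over a wide range, with Pdia3 at its top and Dnajb9 at its foot in both libraries. Of the degradation genes, Herpud1, a membrane part of the complex that retrotranslocates misfolded proteins, had 110.9 and 98.3 TPM, and Edem1, a lectin that passes misfolded glycoproteins on, had 45.5 and 49.9 TPM.

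The ER stress response element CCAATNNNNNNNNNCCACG joins a CCAAT box, known to bind NF-Y, to a CCACG part known to bind Atf6 and Xbp1. It was present on either strand in 0.119% of 32851 promoter windows and in 0.137% of all genes with a window. Of the 10 ER folding genes with a window 6 held it: Hspa5, Hsp90b1, Calr, Canx, Pdia6 and Dnajc3. No gene of another class with a window held it. The elements are printed because these letters are the known binding sequence of the ER stress response. Capitals mark the element, and where they begin with CGTGG the element lies on the opposite strand of the gene.
Hspa5 (chr2:34772017-34772051, plus strand): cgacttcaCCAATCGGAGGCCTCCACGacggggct
Hsp90b1, first element (chr10:86705630-86705664, minus strand): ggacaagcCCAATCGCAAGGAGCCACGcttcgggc
Hsp90b1, second element (chr10:86705525-86705559, minus strand): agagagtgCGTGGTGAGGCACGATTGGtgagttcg
Calr (chr8:84847067-84847101, minus strand): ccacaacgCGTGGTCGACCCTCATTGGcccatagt
Canx (chr11:50325792-50325826, minus strand): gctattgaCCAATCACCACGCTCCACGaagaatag
Pdia6 (chr12:17266483-17266517, plus strand): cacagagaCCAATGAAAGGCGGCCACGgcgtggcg
Dnajc3 (chr14:118937819-118937853, plus strand): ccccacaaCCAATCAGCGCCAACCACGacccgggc
The 6 genes with the element ran from 30.6 ± 1.36 TPM (Dnajc3) to 421 ± 10.8 TPM (Hspa5), and Pdia3, the highest ER gene, had no match to these letters. The element of Hspa5 begins 65 bases before the start and that of Calr 162 bases before it. A plain CCAAT was present in all 10 ER folding genes with a window and in 24 of the 35 genes (68.6%), against 41.1% of all genes with a window. TGATGNAA, letters of the kind bound by Atf4 with a C/EBP partner, was present in 3.97% of windows and in 2 of the genes, Herpud1 and Hspa14. That is 5.71% of the 35 genes, against 4.51% of all genes with a window. In Herpud1 the match lies on the opposite strand, so the capitals show its reverse complement.
Herpud1 (chr8:94386309-94386332, plus strand): acggcgggTTGCATCAgcccgcac
Hspa14 (chr2:3512855-3512878, minus strand): aaccgttcTGATGAAAggcggcat

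Beyond the members, 123 further genes of the same pathways were described, of which 96 (78.0%) were detected and 8 were listed at 0 in both libraries. Of 16 cytosolic cochaperones 15 were detected, with the Hsp90 cochaperone Ptges3 (p23) at 258 ± 14.1 TPM, St13 (Hip) at 141.9 ± 2.61 TPM and Ahsa1 at 94.3 ± 10.2 TPM. All 7 further mitochondrial genes were detected, with the protease Clpp at 81.6 ± 4.07 TPM, and all 11 further J-domain genes, with Dnajc7 at 284 ± 8.67 TPM. Of 20 further ER folding and translocation genes 18 were detected, led by the proline isomerase Ppib at 319 ± 1.44 TPM, while Pdia5 was listed at 0. Of 14 further ER degradation genes 13 were detected, led by Selenos at 131.4 ± 4.01 TPM.

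The remaining lists, which hold inducible genes among others, were detected in unequal shares. Of 9 small heat shock genes 1 was detected (Hspb6, 1.90 ± 0.233 TPM), and Hspb2, Hspb3, Hspb8 and Cryaa were listed at 0 in both libraries. Of 6 further Hsp70 and Hsp110 genes 3 were detected, led by Hspa4l at 16.1 ± 0.0354 TPM. Of 5 further genes of Hsf factors and their regulators 2 were detected, the Hsf1 inhibitor Hsbp1 at 167.1 ± 1.65 TPM and Hsf2 at 11.8 ± 0.460 TPM, with Hsf3 listed at 0. Of 15 further genes of the Eif2ak3 arm and the integrated stress response 9 were detected. Eif2s1, which encodes eIF2 alpha, led them at 147.0 ± 0.276 TPM, followed by the phosphatase subunit Ppp1r15a (GADD34) at 41.5 ± 0.742 TPM, while Chac1, a target of Atf4, was listed at 0. Of 10 further genes of the Ern1 and Atf6 arms 8 were detected, with the RNA ligase Rtcb, which joins the cut Xbp1 mRNA, at 124.7 ± 2.98 TPM, and Ern2, the epithelial paralog of Ern1, listed at 0.

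The members were next compared between the technical libraries, which shows how far each level differed between them and tests no condition. The two-sided exact binomial test on rounded estimated counts, with Benjamini-Hochberg adjustment over 17334 genes, called 10 of the 42 members (23.8%), 6 higher and 4 lower in technical replicate 1, against 19.2% of all genes tested in either direction. Among genes with 1000 or more counts in sum, a limit added after the data were seen, 10 of 32 members were called, against 27.3% of all such genes. The members' share thus lay near the background, and no member called differed by more than 2-fold. Read sampling alone, which the test assumes, would give far fewer calls, so its adjusted p values are likely too small. The log2 ratios of the members ran from -0.68 (Hspa1b) to 0.54 (Hspa1a), and both of these missed the threshold at their low counts (adjusted p = 0.25 and 0.521, exact binomial test).

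The largest called difference was that of Hsf1, which had 901 estimated counts in technical replicate 1 and 1020 in technical replicate 2 (log2 ratio -0.36, adjusted p = 4.8e-06, exact binomial test). It was also lower in technical replicate 1 in the smaller count table (log2 ratio -0.30, adjusted p = 0.0194, exact binomial test). Hspa9 was higher in technical replicate 1 (log2 ratio 0.24, adjusted p = 3.9e-06, exact binomial test), as were Hspa14 (0.20), Hsp90ab1 (0.12), Calr (0.11), Canx (0.11) and Dnaja1 (0.09). Dnajb1 (-0.19), Edem1 (-0.14) and Pdia3 (-0.09) were lower. In the smaller count table Pdia3 (adjusted p = 0.0180, exact binomial test) was called too, but the calls of Hspa9 (0.192), Dnajb1 (0.408), Calr (0.785), Canx (0.851) and Dnaja1 (0.955) were lost, each number being the adjusted p of that test, and Hspa14 had no entry. There the ratios of Hsp90ab1 (-0.09) and Edem1 (0.01) had the opposite sign, so the directions given above for these 2 genes hold in the larger table alone. By TPM, 35 of the 42 members varied by less than 10% (coefficient of variation of the libraries), with a median of 4.08% and a maximum of 30.7% for Hspa1b.

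**Figure D3:**
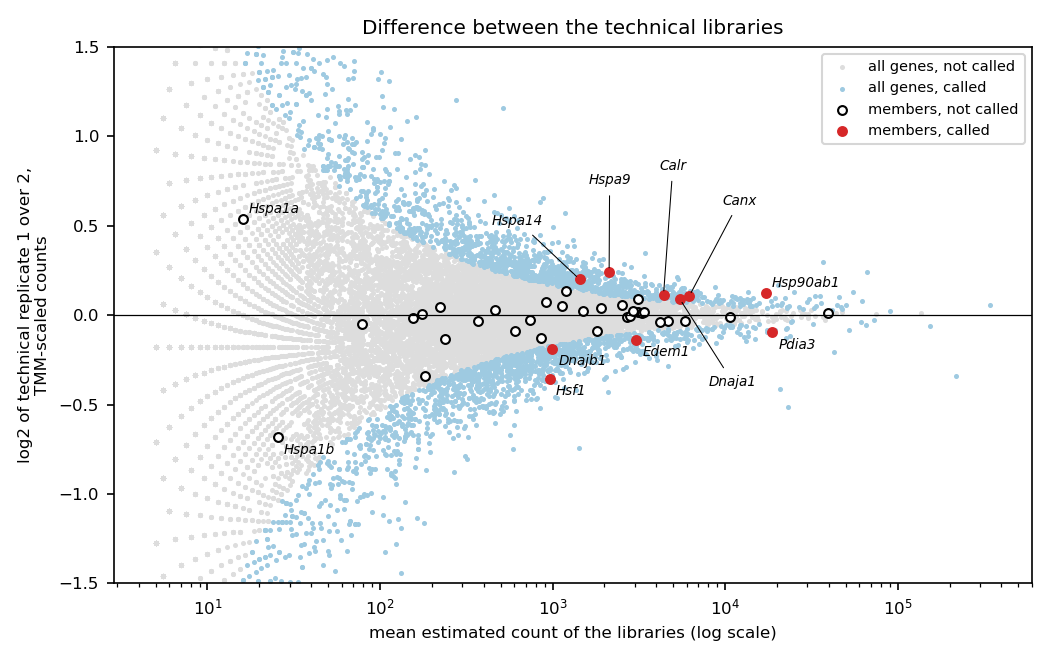
Log2 ratio of technical replicate 1 over technical replicate 2 against the mean estimated count (log axis) for all genes tested and for the 42 members. The members called (red) lie within the band of called genes (blue), and Hspa1a and Hspa1b, at the low end of counts, lie farthest from 0 without being called; 954 other genes with a ratio beyond 1.5 are outside the axis.

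Several chaperone genes have near-identical copies in the genome, and the counts assigned to them depend on how reads were divided. Stretches of 50 nt, the length that the deposited effective lengths imply, were compared with all other annotated transcripts, a check chosen after the data were seen. The labels give fragments of 100 to 300 bp, so these stretches are shorter than the labelled fragments. Of the 42 genes 19 shared no stretch with another gene and 28 shared under 5%, whereas 8 shared over 20%. Hspa1a shared 66.3% and Hspa1b 62.3%, mostly with each other, so their sum is firmer than either level. Hsp90aa1 shared 47.5%, Hspd1 42.1% and Hspa8 39.4%, mostly with processed pseudogenes. Of the 12 pseudogenes that share stretches with Hspa8, Gm15459 was assigned most, 77.5 and 75.8 TPM, a small part of the level of Hspa8 itself. Hspe1 shared 22.8%, Dnajb6 20.97% and Dnaja1 20.6%. The Dnaja1 pseudogene Gm15542 was assigned 123.5 and 104.45 TPM, and in the shared stretches reads of the gene and of this copy cannot be told apart.

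The smaller table, of whole-number counts on an older annotation, gave several of these genes much less. Hspa8 had 571 and 566 counts there, against 41995 and 36886 estimated counts in the larger table. Its share of the counts of matched genes was lower by a log2 ratio of -4.17, whereas the median over 41 members found in both tables was 0.68 and that over 12406 genes was 0.62. Dnajb6 (-2.46), Hspa1a (-2.27), Dnaja1 (-2.11), Hspa1b (-1.79), Hsp90aa1 (-1.52) and Hspe1 (-1.12) also had lower shares, and each of these shares over 20% of its stretches, as does Hspd1 (-0.32). High level went with lower shares as well: among the 116 genes at 1000 TPM or more the median was -3.81. Among the 101 genes from 500 to 1000 TPM it was -1.32. Members that share little or nothing were lower too: Edem1 (-1.02) and Canx (-0.90) share no stretch, Pdia3 (-0.65) shares 0.0314%, Hsp90ab1 (-0.21) 3.44% and Dnajb9 (-0.27) 5.50%. Of these, Pdia3 and Hsp90ab1 still lay above the median of the genes from 500 to 1000 TPM. In this table Hspa1a and Hspa1b were left with 1 and 0 and with 2 and 1 counts in technical replicates 1 and 2. What part copies and level had in these differences was not tested.

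**Figure D4:**
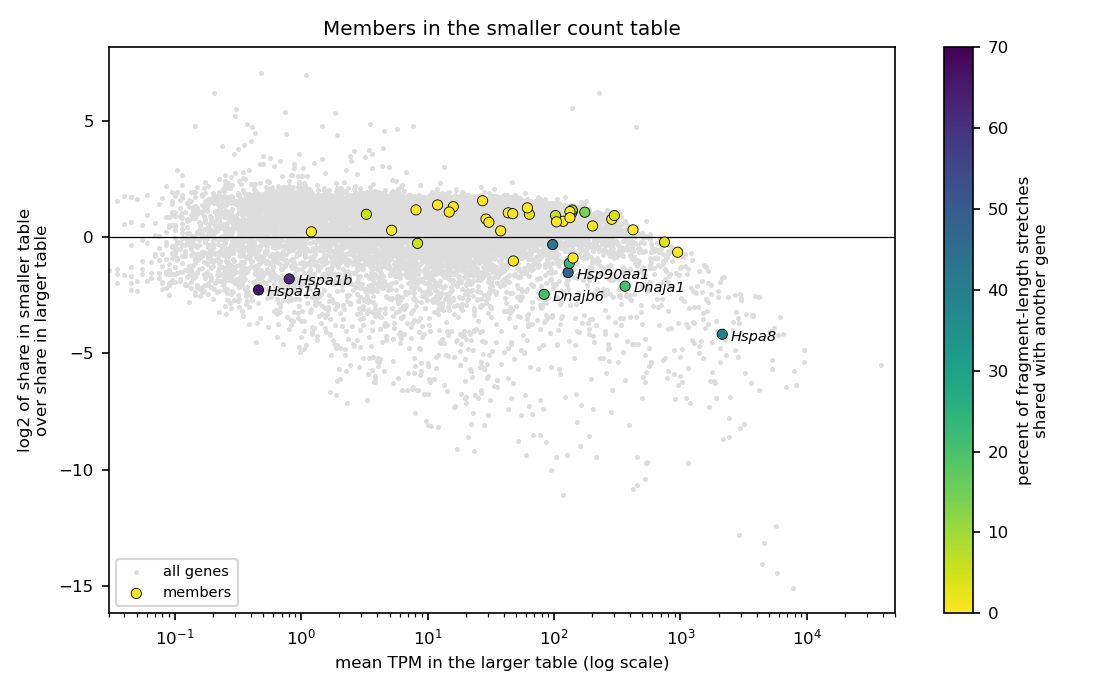
Log2 of each gene's share of counts in the smaller table over its share in the larger table, against its mean TPM (log axis), with the members coloured by the percent of 50-nt stretches that they share with another gene. Hspa8 lies at -4.17. Only the members with the lowest ratios are labelled by name, and these all share over 20% of their stretches. Edem1, not labelled at -1.02, shares none.

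The annotated product that carried each level was a protein-coding transcript for most members. In 39 of the 42 genes a protein-coding transcript led by TPM in both libraries, and 5 genes had a single annotated transcript. Cct8 was led by a transcript annotated for nonsense-mediated decay (28.1% and 28.2% of its TPM), and Hspa4 by a retained-intron transcript (48.1% and 49.7%). Dnaja1 was led by a noncoding transcript in technical replicate 1 (29.4%) and by a coding transcript in technical replicate 2 (30.9%). By estimated counts, which do not divide by length, a protein-coding transcript led in 41 genes, Cct8 being the exception. Short noncoding transcripts also took part of the highest levels, with 1 transcript annotated for nonsense-mediated decay at 37.1% and 39.4% of Pdia3 and 1 noncoding processed transcript at 24.3% and 22.1% of Hspa8.

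As a share of all gene counts the members took 1.12% of technical replicate 1, with an exact Clopper-Pearson interval (95%) of 1.117% to 1.128%. They took 1.11% of technical replicate 2, with an interval of 1.107% to 1.118%. The constitutive cytosolic genes took 0.481% and 0.466%, the ER folding genes 0.371% and 0.374%, and the CCT subunits 0.134% and 0.136%. The mitochondrial genes took 0.0414% and 0.0380%, the heat-inducible genes 0.0341% and 0.0352%, the ER degradation genes 0.0334% and 0.0350%, the sensors and factors 0.0217% and 0.0215%, and Hsf1 0.00586% and 0.00750%. The cytosolic and ER folding genes thus held most of the chaperone reads in both libraries. In the smaller table the order at the top was another, with ER folding genes at 0.474%, CCT subunits at 0.289% and constitutive cytosolic genes at 0.195% on average. The intervals hold only the error of counting, because without molecular identifiers several reads can stem from 1 molecule.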

How the data were processed

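Polyadenylated RNA of 1 biological replicate was measured in 2 technical libraries. The larger gene table held estimated counts and TPM that the authors deposited for mm10 and GENCODE M21, per the file headers and the text deposited with each library. A transcript table held the percent of a gene's TPM given to each transcript, as deposited. The smaller table held whole-number counts that the authors deposited for GENCODE M4. Aligner, quantifier, strand setting and versions are not given in the sources used here. Entries without a mouse Ensembl gene identifier took 0.174% and 0.158% of the counts and were left out.

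The members and lists were chosen with earlier results of these data known. All 42 members are named; of the further pathway lists at most the 3 highest and those listed at 0 in both libraries are named, besides Cct6b. Counts of the smaller table were divided by the gene lengths of the larger one for ratios. Expected counts were rounded to whole numbers. Genes with at least 10 counts in sum were tested with scipy 1.17.1, using TMM library sizes from edgeR 4.0.16 and a threshold of 0.05 on adjusted p. DESeq2 1.42.0 size factors were an alternative. The test assumes that read sampling alone separates the libraries. It was tried on simulated counts drawn under that same assumption, which cannot show whether the assumption holds for these libraries. Between the libraries 3328 of 17334 genes were called, far more than read sampling alone would give. The adjusted p values are therefore likely too small. A second entry named Ddit3 was set aside in favour of the one with more counts. No table of proteins was used.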

Additional observations from a re-analysis of the deposited data

Results flagged for a closer look

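A second annotated gene named Ddit3 (ENSMUSG00000116429, chr10:127290829-127293753, plus strand, mm10), which lies within the body of the Ddit3 gene described above and is 105 nt long when spliced, is used in no comparison. It held 6.33 estimated counts (9.10 TPM) in technical replicate 1, above the 3 counts that a count of 0 allows, and 0 in technical replicate 2. Adding it would raise Ddit3 in technical replicate 1 alone.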

How the results depend on the processing

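No paired analysis was possible because there was 1 group. The ER folding median was 132.7 TPM without technical replicate 1 and 138.4 TPM without technical replicate 2. The latter lay more than 1 SD from the reported 133.6 ± 4.04 TPM. There the centre is the median of the genes' mean TPM and the SD that of the 2 library medians, so this distance means little. The values 132.7 and 138.4 TPM are each the median of a single library, so neither says much about stability. With posterior mean TPM the medians were 91.55 (constitutive cytosolic), 87.6 (mitochondrial), 158.1 (CCT), 19.3 (sensors and factors), 119.4 (ER folding) and 68.8 TPM (ER degradation), so the mitochondrial median stayed below the constitutive one. Over protein-coding transcripts alone, an alternative added after the data were seen, they were 72.9 (constitutive cytosolic), 134.2 (CCT), 19.6 (sensors and factors), 121.5 (ER folding) and 59.0 TPM (ER degradation). The ratios then averaged 0.000918 (Hspa1a plus Hspa1b over Hspa8), 0.189 (Hsp90aa1 over Hsp90ab1), 0.157 (Dnajb1 over Dnaja1), 0.248 (Hspa5 over Hspa8), 0.0431 (Hspa9 over Hspa8), 0.232 (Hsp90b1 over Hsp90ab1), 4.02 (Pdia3 over Pdia4), 1.12 (Calr over Canx) and 2.28 (highest over lowest CCT subunit). Without members under 1 TPM the heat-inducible median was 22.5 TPM, and with a pseudocount of 1 TPM the Hsp70 pair stood at 0.00106 of Hspa8. In the smaller table the shares of counts were 0.0369% (heat-inducible), 0.195% (constitutive cytosolic), 0.0511% (mitochondrial), 0.289% (CCT), 0.0433% (sensors and factors), 0.474% (ER folding) and 1.14% (all members), so that ER folding and CCT genes exceeded the constitutive ones. The same table gave 726 called genes and 2 called members (Hsf1 and Pdia3). The other 4 settings of the test called 10 or 11 members and 2802 to 3374 genes. Detection at 5 TPM left 4 of 6 sensors and factors (without Ern1 and Eif2ak3) and moved no other class. From the smaller table's counts per length, also added later, the ratios averaged 0.00199 (Hspa1a plus Hspa1b over Hspa8), 0.0704 (Hsp90aa1 over Hsp90ab1), 0.592 (Dnajb1 over Dnaja1), 0.50 (Hsp90b1 over Hsp90ab1), 2.09 (Pdia3 over Pdia4), 3.62 (Calr over Canx) and 1.99 (CCT), and the order turned for Hspa5 over Hspa8 (4.54), Hspa9 over Hspa8 (1.09; 0.993 in technical replicate 2) and Hspd1 over Hspe1 (1.31). The causes of the shifts were not tested. Counting depth limits Hspa1a and Hspa1b most.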
